A study of Homo sapiens with 6 samples.

Results

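The regions described here are IGF2BP3 IR-PAR-CLIP clusters on small non-coding RNAs. A cluster was taken when it overlapped, on the same strand and by at least 1 nt, an exon of a GENCODE release 44 gene annotated as snRNA, snoRNA, scaRNA, misc_RNA, miRNA, rRNA, vault RNA or ribozyme, and no exon of a protein-coding gene, outside the mitochondrial chromosome. Of 626 clusters on such an exon, 147 also lay on a protein-coding exon and were set aside, which left 479 of the 244645 clusters of the series, on 193 RNAs. The clusters came from HCT116, a human colorectal carcinoma line that carries Tet-OsTIR1-PURO in every group, labeled with 100 µM 4-thiouridine for 15 h and exposed to UV light at 365 nm. Lysates and beads were digested with RNase, written here as in-lysate/on-beads units per µL: RNase I 0.05/0.05, 0.1/0.025 and 0.05/0.025, and RNase T1 1/1 and 0.25/0.25, all with the IGF2BP3 antibody. A sixth library, RNase I 0.1/0.025, had IgG in its place. Each of the 6 conditions has 1 library, so no test between conditions was possible, and all intervals below are 95% intervals that cover counting error only. The antibody is polyclonal and, per the study, partially cross-reacts with IGF2BP2. Electroelution recovered the RNA for RNase I 0.05/0.05 and for RNase T1 1/1, and crushed gel that for the other IGF2BP3 libraries. Concentration and gel extraction therefore cannot be told apart between the RNase T1 libraries or between RNase I 0.05/0.05 and the other RNase I libraries, while RNase I 0.1/0.025 and 0.05/0.025 share an extraction.

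In PAR-CLIP the crosslink leaves T-to-C conversions in the reads, and the caller groups overlapping reads with such conversions into a cluster. The RNAs in question are short and mostly structured. Y RNAs are stem-loop RNAs bound by the Ro60 and La proteins, 7SK holds the elongation factor P-TEFb in an inactive complex, 7SL is the RNA of the signal recognition particle and vault RNAs belong to the vault particle. The snRNAs are parts of the spliceosome, C/D snoRNAs guide 2′-O-methylation of rRNA, and RMRP and RPPH1 are the RNAs of RNase MRP and RNase P. Many of these genes, above all those of Y RNA, 7SK and 7SL, have numerous retrotransposed copies in the human genome.

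The sequences on which the clusters lay are shown for the RNAs that carry most of the signal or that differed most between the enzymes. They were read from hg38 on the sense strand, and capitals mark the bases that lay in a cluster in every library with a cluster on that RNA. RNY1 (chr7:148987136-148987248, minus strand) and RNY4 (chr7:148963315-148963410, plus) are annotated Y RNA genes. The next 4 are annotated Y_RNA copies with their gene identifiers, at chr19:11408772-11408880 (plus), chr16:66550457-66550567 (plus, on an exon of a lncRNA), chr20:23457584-23457685 (minus) and chr7:140609847-140609955 (plus). The last of them had 1 cluster only, with RNase T1 1/1.
RNY1: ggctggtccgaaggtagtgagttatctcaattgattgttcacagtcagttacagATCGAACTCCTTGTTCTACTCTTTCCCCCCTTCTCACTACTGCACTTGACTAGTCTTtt
RNY4: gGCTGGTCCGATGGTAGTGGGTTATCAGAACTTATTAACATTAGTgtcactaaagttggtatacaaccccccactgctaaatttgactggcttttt
Y_RNA ENSG00000202357: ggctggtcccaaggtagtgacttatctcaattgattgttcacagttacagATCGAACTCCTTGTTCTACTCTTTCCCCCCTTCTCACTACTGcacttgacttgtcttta
Y_RNA ENSG00000275745: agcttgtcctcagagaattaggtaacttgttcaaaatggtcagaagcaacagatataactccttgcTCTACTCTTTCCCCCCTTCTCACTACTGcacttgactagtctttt
Y_RNA ENSG00000200208: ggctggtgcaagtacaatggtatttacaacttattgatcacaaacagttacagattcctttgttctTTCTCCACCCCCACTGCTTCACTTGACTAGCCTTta
Y_RNA ENSG00000201354: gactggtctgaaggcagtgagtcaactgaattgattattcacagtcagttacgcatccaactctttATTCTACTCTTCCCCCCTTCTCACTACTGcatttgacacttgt
The capitals in RNY1 ran from base 55 to base 111 and hold a long run of C and T. In all 4 copies the capitals also lay toward the 3′ end, whereas in RNY4 they lay at the 5′ end. The RNY4 capitals stop at base 45, where its RNase T1 1/1 cluster of only 9 reads ended. Its RNase I 0.05/0.05, 0.1/0.025 and 0.05/0.025 clusters reached bases 79, 65 and 91 of 96.

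The next 3 RNAs are the highest of their class by mean level: RN7SK (chr6:52995620-52995950, plus, bases 222 to 331), VTRNA1-2 (chr5:140718925-140719013, plus) and RNU4-2 (chr12:120291763-120291903, minus). SNORD14E (chr11:123058077-123058161, minus), with clusters in 3 libraries, is added for the stretch its clusters share.
RN7SK, 3′ part: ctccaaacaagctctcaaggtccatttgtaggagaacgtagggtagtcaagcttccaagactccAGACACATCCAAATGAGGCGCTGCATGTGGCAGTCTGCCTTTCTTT
VTRNA1-2: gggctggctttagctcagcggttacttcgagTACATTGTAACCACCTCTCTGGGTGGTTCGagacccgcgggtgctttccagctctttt
RNU4-2: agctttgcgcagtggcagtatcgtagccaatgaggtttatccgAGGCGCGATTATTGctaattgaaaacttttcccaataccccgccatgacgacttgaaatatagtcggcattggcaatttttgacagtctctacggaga
SNORD14E: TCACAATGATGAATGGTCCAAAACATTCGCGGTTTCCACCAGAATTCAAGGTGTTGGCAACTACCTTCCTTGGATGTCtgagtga
On RNU4-2 the shared stretch was only bases 44 to 57, since its RNase T1 clusters were short and lay at different places.

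Clusters on small RNAs were a minor part of each library. They numbered 173 with 8207 reads in RNase I 0.05/0.05, 80 with 2530 reads in RNase I 0.1/0.025 and 117 with 3343 reads in RNase I 0.05/0.025. With RNase T1 there were 82 with 2262 reads at 1/1 and 27 with 538 reads at 0.25/0.25. None of the 25 clusters of the IgG library, which held 324 reads in all, met the rule. The interval of its share of reads reached 1.13%, above the share in every IGF2BP3 library. This absence therefore does not separate IgG from IGF2BP3. Depth differed, since all clusters together held 182448 to 2362467 reads in the 5 IGF2BP3 libraries. Of 7 epithelial marker genes 5 had clusters in at least 4 of these libraries, LGALS4 and CEACAM5 had none, and the blood and fibroblast markers had none. A CLIP cluster reports binding as well as expression, so the missing markers do not show that a gene was silent.

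As a share of all cluster reads, small RNAs took more with RNase I than with RNase T1. In 2 of the 3 pairs of enzymes that share a gel extraction the difference exceeded counting error. The share was 0.347% (0.340 to 0.355) with RNase I 0.05/0.05 and 0.195% (0.188 to 0.204) with RNase T1 1/1, a ratio of T1 over RNase I of 0.563 (0.537 to 0.590). Among the crushed-gel libraries it was 0.498% (0.482 to 0.516) with RNase I 0.05/0.025 and 0.295% (0.271 to 0.321) with RNase T1 0.25/0.25, a ratio of 0.592 (0.539 to 0.648). In the third pair, also from crushed gel, RNase I 0.1/0.025 had 0.315% (0.303 to 0.327), and RNase T1 0.25/0.25 over it was 0.936 (0.852 to 1.028), an interval that includes 1. At the same extraction, RNase I 0.1/0.025 over RNase I 0.05/0.025 was 0.632 (0.600 to 0.665). Each RNase I share thus lay above both RNase T1 shares, but the intervals of RNase I 0.1/0.025 and RNase T1 0.25/0.25 overlapped. The 3 RNase I libraries differed among themselves by more than counting error. Without replicates the spread between libraries of one condition is unknown.

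Y RNAs led in every library. They made up 196 of the 479 clusters on 96 RNAs and held 47.0%, 40.9% and 49.7% of the small RNA reads with RNase I 0.05/0.05, 0.1/0.025 and 0.05/0.025, and 57.1% and 51.5% with RNase T1 1/1 and 0.25/0.25. Their level ranged from 1116 to 2478 CPM (cluster reads scaled to the sum of all cluster reads of a library). The snRNAs followed with 89 clusters on 30 RNAs, 7SK and its copies with 62 on 21, and 7SL and its copies with 33 on 13. A group of 6 misc_RNA elements had 25 clusters, the miRNA genes 18, the vault RNAs 19, C/D snoRNAs 22, RMRP and RPPH1 13, and 5.8S rRNA copies 2. No scaRNA and no H/ACA snoRNA had a cluster, out of 49 scaRNA and 214 SNORA genes in the annotation.

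**Figure D1:**
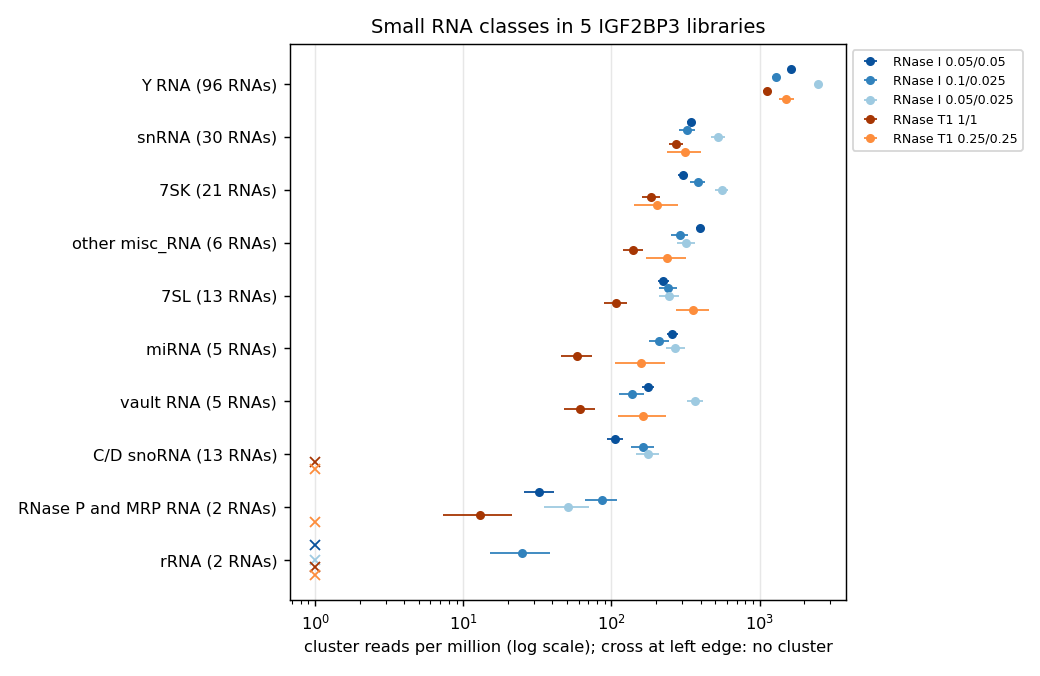
Level of each small RNA class in the 5 IGF2BP3 libraries, on a logarithmic axis of CPM, with points for libraries and bars for the Poisson 95% interval of the count; a cross marks a library without a cluster. Y RNAs lie between 1116 and 2478 CPM in every library, and C/D snoRNAs have crosses in both RNase T1 libraries.

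Among member clusters, C/D snoRNAs differed most plainly between the enzymes. The RNase I libraries, in the order above, had 10, 6 and 6 such clusters on 13 RNAs. None was among the 109 small RNA clusters of both RNase T1 libraries. SNORD14E, in an intron of a protein-coding gene, had 45, 40 and 37 reads with RNase I, and its clusters of 79 to 87 nt covered nearly the whole 85 nt RNA. SNORD49B had 104, 57 and 7 reads, but its clusters, 53 to 153 nt long, ran on into the spliced lncRNA SNHG29, whose exon holds it in this annotation. Reads of snoRNA and host RNA cannot be told apart there. Of the 22 C/D snoRNA clusters, 10 lay on such a lncRNA exon. SNORD3A, the U3 snoRNA, had 1 cluster of 5 reads. SNORD118, the U8 snoRNA, had 4 clusters with 51 reads that also lay on an exon of the protein-coding gene TMEM107 and so were not members. Of these, a cluster of 8 reads came from RNase T1 1/1.

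RNY1 had the highest mean level of all 193 RNAs, also per kilobase. It had 692, 321 and 410 reads with RNase I 0.05/0.05, 0.1/0.025 and 0.05/0.025, and 317 and 119 reads with RNase T1 1/1 and 0.25/0.25. This is 293, 400 and 611 CPM with RNase I, and 274 and 652 CPM with RNase T1. RNase I over RNase T1 was 1.07 (0.93 to 1.23) for RNase I 0.05/0.05 against RNase T1 1/1 and 0.94 (0.76 to 1.16) for RNase I 0.05/0.025 against RNase T1 0.25/0.25, both with 1 inside the interval. RNase I 0.1/0.025, also from crushed gel, was lower than the last pair, with an interval of 357 to 446 CPM against 554 to 673 and 540 to 781 CPM. RNY3 had 119 reads in 4 libraries (17.4 to 37.3 CPM) and RNY4 129 reads in 4 (7.78 to 32.8 CPM), and neither had a cluster with RNase T1 0.25/0.25. RNY5, annotated within a lncRNA and therefore no member, had 4 clusters with 131 reads, all with RNase I. The order of the Y RNA genes by mean level per kilobase was RNY1 at 3947, RNY4 at 214 and RNY3 at 194 CPM per kb, and the intervals of the last 2 overlapped in each RNase I library.

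**Figure D2:**
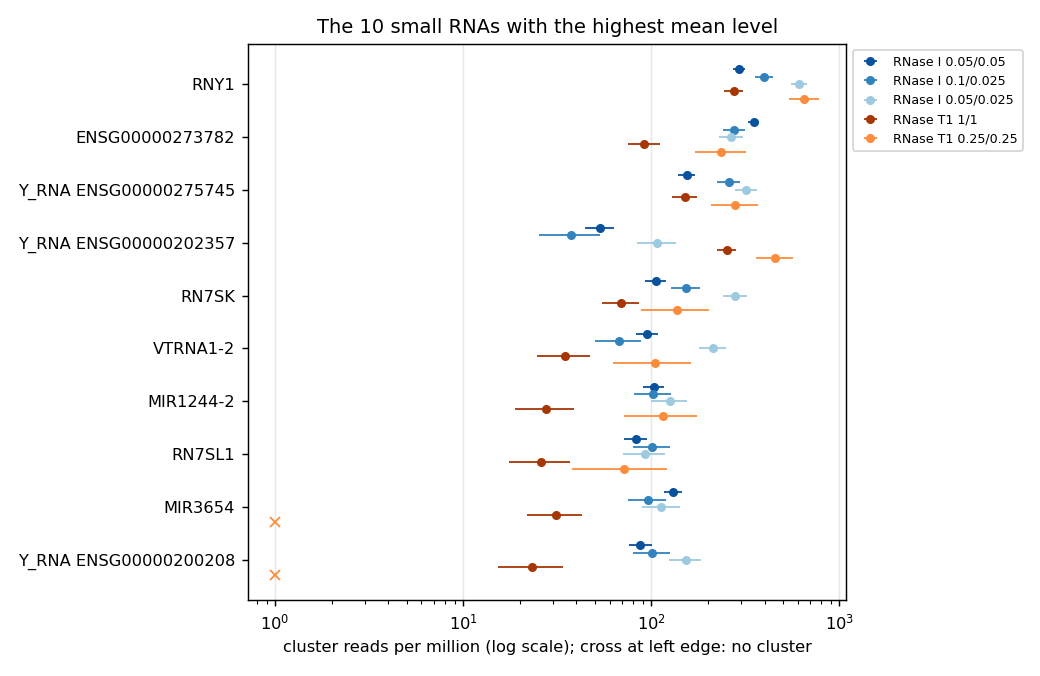
The 10 small RNAs with the highest mean level, on a logarithmic axis of CPM, with a point for each library and a bar for the Poisson 95% interval. Y_RNA ENSG00000202357 lies higher in both RNase T1 libraries (251 and 455 CPM) than in the RNase I libraries (37.3 to 107 CPM), while RNY1 does not separate by enzyme.

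The stretch of RNY1 under the clusters differed between the enzymes. On RNY1 each RNase I library had a single cluster of 112 to 114 nt over the whole 113 nt RNA, whereas RNase T1 gave a cluster of 58 or 57 nt that ended 2 nt before its 3′ end and, at 1/1 alone, 1 more of 8 reads near the 5′ end. After alignment of all Y RNA clusters to RNY1, RNY3, RNY4 and RNY5, 152 of 196 (77.6%) had their midpoint 3′ of the middle of the closest Y RNA. They held 96.2% and 100% of the Y RNA reads with RNase T1 1/1 and 0.25/0.25, and 65.6%, 58.6% and 59.8% with RNase I 0.05/0.05, 0.1/0.025 and 0.05/0.025. The RNase I clusters over the whole of RNY1 have their midpoint at the middle and just missed this criterion. Without RNY1, a comparison chosen after seeing the data, the shares with RNase I were 79.9%, 84.9% and 79.4%, and with RNase T1 95.8% and 100%, so RNY1 carried much of the contrast. RNY3 differed from RNY1. Its clusters with most reads lay at the 5′ end in each of its 4 libraries. With RNase I 0.05/0.05 the 5′ cluster held 43 reads and the 3′ cluster 13. With RNase T1 1/1 the counts were close, 13 and 11.

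**Figure D3:**
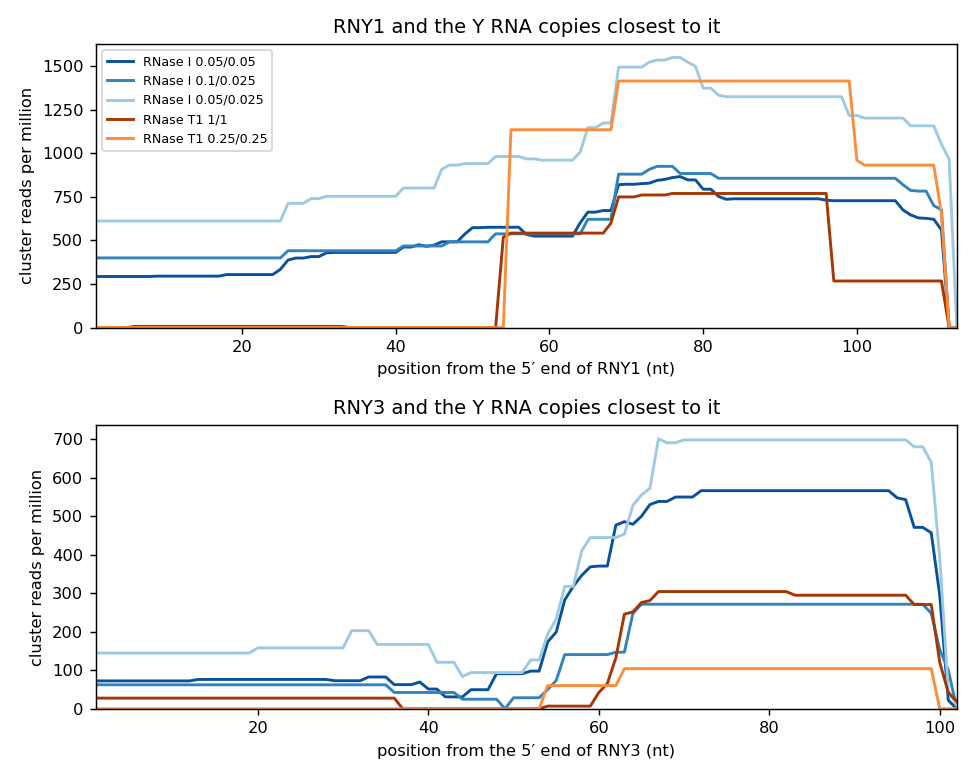
Summed CPM of the clusters along RNY1 (top) and RNY3 (bottom), each with the Y RNA copies that align best to it; the x axis is the position from the 5′ end and each line is 1 library. The RNase T1 lines stay near 0 over the 5′ part of RNY1, where the RNase I lines do not, and in both panels every line peaks 3′ of the middle.

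The Y RNA stretch sets small RNA clusters apart in base composition. A run of at least 10 C or T occurred in 114 of 196 Y RNA clusters (58.2%) and in 30 of the 283 others (10.6%), against 15.5% of all clusters of the 5 libraries. The tetramer CATT, known as part of IGF2BP sites, was in 7 Y RNA clusters (3.57%), in 66 of the other small RNA clusters (23.3%) and in 38.4% of all clusters. CAGT was in 26.1% of small RNA clusters and 27.0% of all clusters. CATT was also rarer on small RNAs within each of 3 length classes of either enzyme: among RNase I clusters of up to 40 nt it was in 5.41% of 148 small RNA clusters and 24.4% of all clusters. These are matches on the cluster strand, and since overlapping clusters of different libraries share their sequence, the counts are not independent.

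Of the Y RNA reads, 74.1% lay on 93 annotated copies rather than on RNY1, RNY3 or RNY4. For 7SK the gene RN7SK held 40.2% of 1650 reads, and for 7SL the genes RN7SL1, RN7SL2 and RN7SL3 held 68.8% of 1077. How far a copy can be told from its gene of origin varied. The 243 clusters on copies of the 3 families were compared without gaps to the closest stretch of the gene of origin. No base differed in 54, 1 or 2 differed in 108 and 3 or more in 81. An insertion or deletion shifts such a comparison, so clusters among the 81 can differ in fewer bases than counted. Of the 54, 47 had a whole sequence that occurs at 2 or 3 places in hg38 and cannot be assigned to a locus by it, and 7 ran past the end of the gene of origin and occur once. Reads were short and were aligned with a few mismatches allowed, and the clusters with 1 or 2 differing bases are told apart by these alone within the gene. Y_RNA ENSG00000202357 and Y_RNA ENSG00000275745 belong mostly to the first: 4 of their 5 clusters each were identical to a stretch of RNY1. Over all 479 clusters, 348 had a sequence that occurs once in hg38, 97 occurred at 2 places and 34 at 3, and none at more than 3.

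The RNAs with many identical genes were absent. RNU1-1, RNU2-1 and RNU6-1, whose whole sequences occur 8, 11 and 7 times in hg38, had no cluster. RNU4-2 had 237 reads, RNU4-1 230, RNU5A-1 204 and RNU5B-1 133, each of them with a whole sequence found once. This does not make every cluster on them unique, since a cluster sequence on RNU4-2 occurred at 3 places. Of the 89 snRNA clusters, 26 had a sequence that occurs at 2 or 3 places. The U6 family, with 1310 annotated genes, had 1 cluster, the U2 family 11 with 120 reads and the U1 family 4. How reads that align to many places were treated is a mapping setting that was not tested. A missing cluster on U1, U2 or U6 therefore does not show that the RNA was not bound.

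T-to-C conversion was lower on small RNAs than elsewhere with RNase I. The share of clusters with more than 0.5 conversion events per read was 48.0% (83 of 173) against 74.2% of all clusters in RNase I 0.05/0.05. It was met by 36 of 80 (interval 33.8% to 56.5%) against 75.5% in RNase I 0.1/0.025 and by 53.8% (63 of 117) against 69.0% in RNase I 0.05/0.025. With RNase T1 it was 48.8% (40 of 82) against 54.5% at 1/1 and 33.3% (9 of 27) against 59.3% at 0.25/0.25. For RNase T1 1/1 the share of all clusters lay inside the binomial interval of the small RNA clusters (37.6% to 60.1%). Over the 5 libraries 48.2% of small RNA and 68.0% of all clusters passed. Over all RNase I clusters the share rose with length, and small RNA clusters were shorter. By length class, RNase I shares for small RNA and all clusters were 41.9% and 55.1% up to 40 nt. They were 53.4% and 72.1% at 41 to 60 nt, and 55.1% and 87.5% above. With RNase T1 the small RNA share was lower up to 60 nt, but above it 68.8% of 16 clusters passed against 64.0%. The order depended on the criterion: at 0.25 the shares were 84.8% and 97.4%, but at 0.75 they were 24.0% and 22.2%.

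Conversion moved with the bases at which a copy differed from its gene of origin when the 2 were compared without gaps. In that comparison 114 copy clusters on 63 RNAs had T at a base where the gene of origin has C. Of these, 82 (71.9%) had more than 0.5 events per read and the median was 0.86. Among the 129 copy clusters without such a base, on 69 RNAs, 43 (33.3%) passed. Their median was 0.40, close to the 0.45 of the 48 clusters on the genes themselves. A copy with clusters in several libraries adds a cluster for each, so the clusters are not independent. The contrast was also present among the clusters with only 1 or 2 differing bases, with 24 of 41 and 15 of 67. A read from the gene of origin placed on such a copy would carry a C at that base. Its part in the conversion counts was not tested. An insertion or deletion shifts a comparison without gaps, so that bases can differ that match once gaps are allowed. RNY3P2 had at least 1 event per read in each of its 4 libraries. Without gaps each of its clusters had 2 bases with T for C, but aligned with gaps none of its aligned bases was mismatched. How many clusters would change group with gaps was not tested. RN7SKP37, which has the opposite difference, a C where RN7SK has T, had 0.02, 0.07 and 0.02 in its 3, on 163, 43 and 89 reads. Copies with only this kind of difference varied and were not summarized as a group. Y_RNA ENSG00000207024, also with a single C for T, had 0.43, 0.47 and 0.42 with RNase I and 0.14 with RNase T1 1/1.

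**Figure D4:**
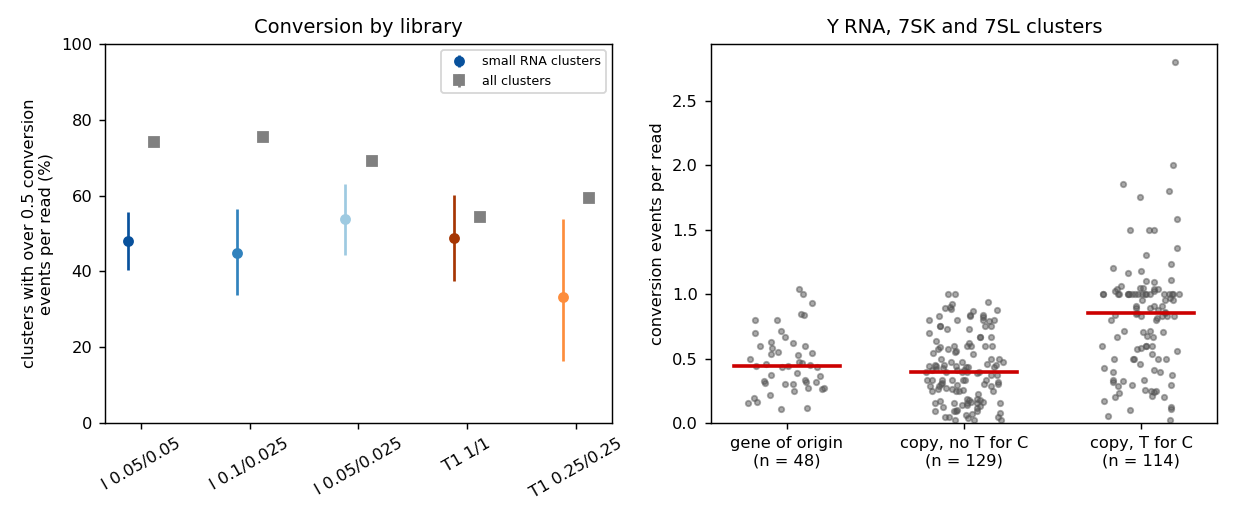
Left, percent of clusters with over 0.5 conversion events per read in each library, for small RNA clusters (coloured circles) and all clusters (grey squares), with exact binomial 95% intervals. Right, events per read of each Y RNA, 7SK and 7SL cluster on the genes of origin, on copies without and on copies with a T where the gene of origin has C. Copies were compared without gaps, and red lines are medians, 0.45, 0.40 and 0.86.

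RN7SK was covered at several places and most heavily at its 3′ end. It had 249, 123 and 187 reads with RNase I in the order above, and 80 and 25 with RNase T1 1/1 and 0.25/0.25. Its clusters were spread from the 5′ end to the 3′ end, and in all 5 libraries 1 of them ended within 1 nt of the 3′ end and held the most reads of the RNA. VTRNA1-2, the highest vault RNA, was covered over a shorter stretch with RNase T1, as RNY1 was. It had 225, 54 and 142 reads with RNase I and 40 and 19 with RNase T1. Its clusters were 78 to 90 nt long with RNase I, close to the full 89 nt, and 31 and 32 nt with RNase T1, over the middle of the RNA. VTRNA1-1 had 160 reads, VTRNA1-3 115 and VTRNA2-1 97, each in 4 libraries.

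**Figure D5:**
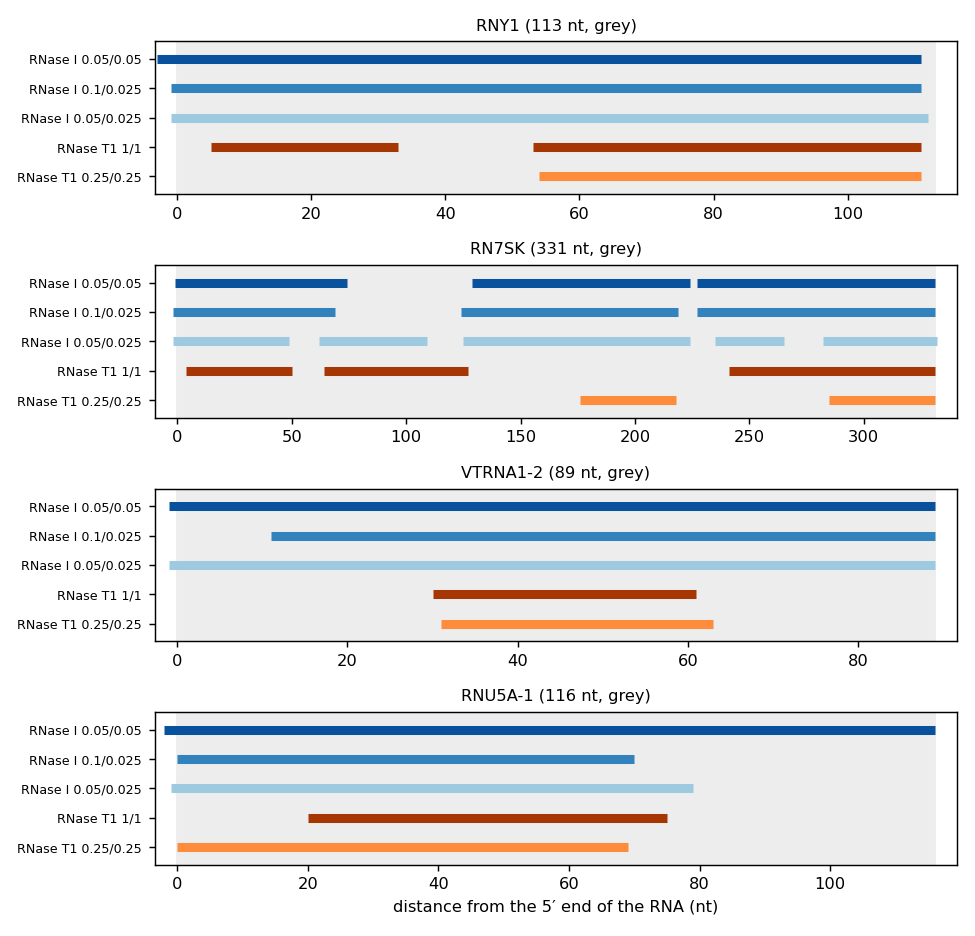
Position of each cluster (bars, 1 row for each library) along RNY1, RN7SK, VTRNA1-2 and RNU5A-1, with the distance from the 5′ end in nt on the x axis and the length of the RNA in grey. On RNY1 and VTRNA1-2 the RNase I bars cover most of the RNA, and the RNase T1 bars with most reads cover 58 and 57 nt, and 31 and 32 nt.

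The ends of the clusters followed the cut of RNase T1, which cleaves after G, less often than elsewhere. The last base was G in 57 of 82 small RNA clusters (69.5%) against 94.7% of all clusters with RNase T1 1/1, and in 19 of 27 (70.4%) against 91.7% at 0.25/0.25. Of the 109 RNase T1 clusters 96 (88.1%) ended either in G or within 3 nt of the annotated 3′ end of the RNA. An end within 3 nt of the 3′ end was seen in 94 of 196 Y RNA clusters (48.0%), 6 of 19 vault RNA clusters and 12 of 62 7SK clusters. A start within 3 nt of the 5′ end was seen in 12 of 22 C/D snoRNA, 9 of 19 vault RNA, 36 of 89 snRNA and 19 of 196 Y RNA clusters. With RNase I, small RNA clusters had a median length of 43 to 45 nt against 52 to 54 nt for all clusters, and with RNase T1 38 and 45 nt against 33 and 37 nt.

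Among the snRNAs, those of U4 and U5 held most reads. RNU4-2 had 91, 40 and 31 reads with RNase I and 64 and 11 with RNase T1, and RNU4-1 had 91, 40, 30, 69 and 0. RNU5A-1 had 105, 29, 44, 20 and 6 reads in the same order, and RNU5B-1 71, 19, 31, 12 and 0. The minor spliceosome was present at low levels, with 60 reads on RNU11, 61 on RNU12, 36 on RNU4ATAC and 13 on RNU6ATAC. RNU7-1, which acts in histone mRNA processing, had 4 clusters with 76 reads that also lay on an exon of the protein-coding gene C12orf57. RMRP had 46, 64 and 34 reads with RNase I, 10 with RNase T1 1/1 and none at 0.25/0.25, and RPPH1 had 41 reads in all.

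On RN7SL1 the clusters lay toward the 3′ end, apart from 1 near the 5′ end in each of RNase I 0.05/0.05 and RNase T1 1/1. RN7SL1 had 195, 81 and 62 reads with RNase I and 30 and 13 with RNase T1, and RN7SL2 had 169, 73, 77, 11 and 14. RN7SL3 had 16 reads.

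Some members are parts of longer transcripts. Of the 479 clusters, 85 with 25.8% of the reads lay on an exon of a lncRNA, pseudogene or TEC gene (a class of provisional gene models), 82 lay in an intron of a protein-coding gene and 289 outside other genes. The element ENSG00000273782 (chr19:15834730-15834804, plus strand), 75 nt long, lies in an exon of the lncRNA UCA1 and was second by mean level, with 827, 221 and 178 reads with RNase I and 106 and 43 with RNase T1. Its clusters reached 603 nt, far beyond the element. The other 5 elements of this kind lie on ZFAS1, DLEU1, NEAT1 and MALAT1, also lncRNAs.

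Of the 5 miRNA genes with clusters, those with most reads had clusters much longer than a mature miRNA. MIR1244-2 had 463 reads in 6 clusters, none of which reached the mature sequence, and MIR3654 had 497 reads in 5 clusters of up to 381 nt on an exon of a processed pseudogene. MIR4426 had 70 reads on the processed pseudogene RPS27AP5. MIR4485 had 20 reads in 2 clusters off its mature sequence. MIR222 had a single cluster of 25 nt with 7 reads that covered the whole 3p arm. The mature sequences covered in full by a cluster are given from RefSeq (GRCh38.p14), with the seed, bases 2 to 8, in capitals.
hsa-miR-222-3p: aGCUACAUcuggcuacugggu
hsa-miR-3654: gACUGGACaagcugaggaa
hsa-miR-4426: gAAGAUGGacguacuuu
No 2 of these share a seed. None of the 11 MIRLET7 genes had a member cluster, and TERC, annotated as a lncRNA, had no cluster at all.

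Between RNase I 0.05/0.05 and RNase T1 1/1, 132 RNAs had at least 10 cluster reads in both libraries together. In CPM 77 (58.3%) were at least 2-fold higher with RNase I, against 29.5% of all genes, and 13 (9.85%) were at least 2-fold higher with RNase T1, against 17.6% of all genes. The median ratio of RNase I over RNase T1 was 2.29 for small RNAs and 1.16 for all genes. Y RNAs made up 40 of the 77, from 64 tested, and copies that share sequence were counted separately. Of the Y RNA genes, RNY4 was among the 77 at 3.97, but RNY1 at 1.07 and RNY3 at 1.14 were not. Of the 77, 56 had no cluster with RNase T1 1/1, where 3 reads were entered. Reads outside clusters are not in the deposited tables, so these ratios describe called clusters. Between the crushed-gel libraries RNase I 0.05/0.025 and RNase T1 0.25/0.25, 26 of 76 (34.2%) were at least 2-fold higher with RNase I, against 27.2% of all genes, and 4 (5.26%) with RNase T1, against 9.70%. The excess over all genes was thus large in the first pair and small in the second. Small RNAs and all genes were not matched for reads or for clusters per gene.

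The largest ratios toward RNase I 0.05/0.05 belonged to RNAs without an RNase T1 1/1 cluster. These were Y_RNA ENSG00000206651 with 126 reads, Y_RNA ENSG00000201800 with 123, SNORD49B with 104, Y_RNA ENSG00000238366 with 98 and VTRNA1-1 with 86. VTRNA1-1 had 11 reads with RNase T1 0.25/0.25. Toward RNase T1 1/1 the largest were Y_RNA ENSG00000201354 with 50 reads against none, RN7SL675P with 38 against 12, Y_RNA ENSG00000202357 with 291 against 126, RNY3P2 with 41 against 21 and RN7SL800P with 15 against 10. The third of these had the most reads, with 126, 30 and 72 reads with RNase I and 291 and 83 with RNase T1. RNase T1 over RNase I was 4.72 (3.81 to 5.86) in the first pair and 4.24 (3.05 to 5.89) in the second. Its RNase T1 1/1 cluster of 43 nt is identical to a stretch of RNY1, where the same library had a cluster of 309 reads, so the 2 loci share these sequences.

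Most small RNA clusters overlapped a cluster of another library. With RNase T1 1/1, 67 of 82 clusters (81.7%) overlapped an RNase I 0.05/0.05 cluster, against 72.4% of all RNase T1 1/1 clusters. Over the 5 libraries 378 of 479 clusters (78.9%), with 92.9% of the reads, overlapped a cluster of another library, against 76.6% of all clusters. The share was lowest in the deepest library, RNase I 0.05/0.05 (109 of 173, 63.0%), and highest in the shallowest, RNase T1 0.25/0.25 (27 of 27). Only 17 of 193 RNAs (8.81%) had a cluster in all 5 libraries, against 29.1% of all genes with a cluster. Any cluster on a gene counted, and the genes were not matched for length or reads. The 17 included RNY1, ENSG00000273782, Y_RNA ENSG00000275745, Y_RNA ENSG00000202357 and RN7SK, which have the highest mean levels.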

How the data were processed

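The authors deposited, for each library, clusters called separately with PARalyzer, with read counts and counts of conversion events that were not normalized. Per the labels and methods, reads were demultiplexed with bcl2fastq 2.20.0.422, trimmed with Trimmomatic 0.30, aligned to GRCh38.p13 with Bowtie 0.12.7 allowing mismatches, and deduplicated by molecular identifier with UMI-tools 1.1.1. The deposited mode score, a fraction, was not used. Cluster reads, not library sizes, served as depth and as the CPM denominator.

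Clusters were intersected with GENCODE release 44 by strand (bedtools 2.31.1), and every member with several small RNA genes was given to 1. The RN7SK locus, annotated as 2 genes, was counted once. All 479 member sequences matched hg38, and exact copies were counted on both strands. Y RNA clusters were aligned with Biopython 1.88; copies were compared with their genes of origin without gaps. Intervals are Clopper-Pearson or Poisson (scipy 1.17.1). Other genes took each cluster by longest exon overlap. Scripts were tested on simulated data. Named RNAs are the 10 highest by mean CPM and the top RNA of each class, a list of known RNAs, and the 5 largest ratios each way among RNAs of at least 20 reads. RN7SKP37, Y_RNA ENSG00000207024, SNORD14E, RN7SL3, the lncRNA hosts and the miRNA genes below the highest were named after their values were seen. Members and lists were chosen with earlier results of these data known. Some sequences are not reported here.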

Additional observations from a re-analysis of the deposited data

How the results depend on the processing

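No paired analysis was possible because each condition has a single library. Of 44 recalculations, 15 fell outside the counting interval of the reported value or, for counts, differed from it by more than 1.5 times. In all 12 recalculations of the 2 ratios of shares the ratio stayed below 1. The ratio of shares, RNase T1 1/1 over RNase I 0.05/0.05, was 0.647 for clusters with 50% or more of their length on the exon, 0.628 without clusters on lncRNA or pseudogene exons, 0.517 with sequences of 1 genomic copy, 0.531 with clusters of at least 10 reads and 0.473 without misc_RNA genes. For RNase T1 0.25/0.25 over RNase I 0.05/0.025 it was 0.438 with 1 genomic copy and 0.447 without misc_RNA genes. Leaving out misc_RNA genes, which include Y RNA, 7SK and 7SL, by construction left 148 clusters, 40.5% of them above 0.5 conversion events per read. Of their RNAs, 20 were at least 2-fold higher with RNase I 0.05/0.05 and 3 with RNase T1 1/1. How many RNAs had enough reads was not counted at this setting, so no share can be set beside that of all genes. The share above the conversion criterion was 84.8% at 0.25 and 24.0% at 0.75, where all clusters had 22.2%, so that the order of small RNA and all clusters turned. The overlap of RNase T1 1/1 with RNase I 0.05/0.05 clusters was 92.5% for clusters of at least 10 reads. It was 57.3% when the overlap had to reach 50% of both clusters. For all RNase T1 1/1 clusters the overlap was not computed at these settings. The RNase T1 0.25/0.25 library, with 27 clusters, limits every statement on it.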
